A study of Rattus norvegicus with 17 samples.

Results

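The regions described here are Olig2-bound sites of rat oligodendrocyte lineage cells that carried Olig2 at the precursor and immature stages but not at the mature stage, lay outside every Brg1 peak and carried the histone mark H3K27Ac at 1 or more stages. They were selected on the measured peak positions of Olig2, Brg1 and H3K27Ac, by joining the Olig2 peaks of the 3 stages into 31655 union regions and keeping those that met each condition by at least 1 bp. An Olig2 peak of both the precursor and the immature stage was present at 15455 union regions (48.8%), and 13038 of these held no Olig2 peak of the mature stage. No Brg1 peak of any stage touched 9959 of those, and 3324 of the 9959 (33.4%) met an H3K27Ac peak. The 3324 Brg1-free acetylated regions made up 10.5% of all union regions.

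Chromatin immunoprecipitation with sequencing (ChIP-seq) had been carried out on primary cells that came from the cortices of wild-type Sprague-Dawley rat pups at postnatal day 2. The precursors (OPC) were labelled as mitogen-treated, and the growth medium held PDGF-AA at 10 ng/ml and bFGF at 20 ng/ml. Immature (iOL) and mature (mOL) oligodendrocytes were labelled as treated with the thyroid hormone T3, and the differentiation medium held T3 at 15 nM and ciliary neurotrophic factor at 10 ng/ml. Brg1, Olig2, H3K27Ac, H3K4me3 and H3K9me3 were each mapped in 1 library at each of the 3 stages, and RNA polymerase II (RNAPII) in 1 library of iOL and 1 of OPC. The cultures had therefore no replicate for any target, and no test between stages could be made. Positions are in rat build rn4. Neither genes nor DNA sequence are given, since the annotation at hand is of another rat assembly. For the same reason the stage labels were not set against marker genes.

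Olig2 is a basic helix-loop-helix transcription factor that specifies the oligodendrocyte lineage and stays in the lineage through differentiation. Brg1 is an ATPase that powers BAF chromatin remodellers, complexes that move nucleosomes and open chromatin at regulatory DNA. H3K27Ac is deposited at active enhancers and promoters, H3K4me3 marks promoters, H3K9me3 marks silenced chromatin, and RNAPII peaks mark DNA at which the polymerase is loaded or paused.

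The lists differ in length, and the depth of each library is unknown. Olig2 gave 21901, 25787 and 2759 peaks in OPC, iOL and mOL, and Brg1 gave 452, 5465 and 4378. The absence of Olig2 from mOL is thus an absence from the shortest Olig2 list, and the absence of Brg1 from OPC is an absence from a list of 452 peaks. H3K27Ac gave 19130, 21589 and 35268 peaks in stage order, H3K4me3 gave 11758, 10467 and 17530, and H3K9me3 gave 3149, 827 and 7103. RNAPII gave 1425 peaks in iOL and 332 in OPC. A longer list meets more regions of every kind, so the share of all 31655 union regions that met the same list is given beside each mark's share by stage.

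A median Brg1-free region was 1497 bp wide, with quartiles of 1309 and 1765 bp and extremes of 749 and 5074 bp. Of these regions 3169 (95.3%) were made of 2 Olig2 peaks, 1 from each stage. The iOL peak was the narrower one at 3222 regions (96.9%), with a median of 862 bp for the iOL peak against 1465 bp for the OPC peak. The whole lists differ in the same direction, with a median peak of 720 bp in iOL and 1312 bp in OPC. The medians at the regions are of the widest peak per region, and a wider peak meets the overlaps of the rule more easily. No difference from the whole lists is therefore read. The iOL and OPC medians were 888 and 1538 bp at otherwise alike regions with Brg1, and 956 and 1458 bp at those with Olig2 also in mOL.

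The commonest H3K27Ac pattern of the Brg1-free regions was a peak at all 3 stages, and the next was a peak in mOL alone. H3K27Ac of any stage chose the regions, so its stage patterns are a description. H3K27Ac of OPC was present at 2009 of the 3324 regions (60.4%, exact Clopper-Pearson 95% interval 58.8 to 62.1), against 19.7% of all union regions. H3K27Ac of iOL was present at 1981 (59.6%, 57.9 to 61.3), against 23.1% of all union regions. H3K27Ac of mOL, a stage at which none of these regions held an Olig2 peak, was present at 2711 (81.6%, 80.2 to 82.9), against 30.6% of all union regions. An H3K27Ac peak of any stage was present at 36.1% of the union regions and, by the rule, at every one of the 3324. All intervals here cover the counting of regions in these lists, not the spread between cultures.

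Acetylation at all 3 stages was found at 1250 regions (37.6%, 36 to 39.3). Acetylation in mOL alone, the stage without an Olig2 peak, was found at 704 (21.2%, 19.8 to 22.6). iOL and mOL together accounted for 402 regions (12.1%) and OPC and mOL for 355 (10.7%). OPC alone accounted for 284 (8.54%), iOL alone for 209 (6.29%) and OPC with iOL for 120 (3.61%). Regions whose H3K27Ac was called only at stages with an Olig2 peak (OPC, iOL or both) were the smaller part of the set. Regions acetylated at all 3 stages were the widest, with a median of 1627 bp, and those acetylated in iOL alone the narrowest, with a median of 1356 bp, followed by those acetylated in mOL alone at 1379 bp.

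The order of the single-stage patterns changed when the same number of widest peaks was taken from each stage. With H3K27Ac lists cut to their 19130 widest peaks, 2903 regions met the rule, and H3K27Ac was present at 69.2% of them in OPC (67.5 to 70.9), 64.3% in iOL (62.5 to 66) and 64.9% in mOL (63.1 to 66.6). The pattern of all 3 stages kept close to its share, at 1051 of 2903 (36.2%, 34.5 to 38). Acetylation in mOL alone fell to 349 regions (12%) with lists of equal number, against 21.2% with all peaks, and was then below OPC alone, at 456 regions (15.7%). The patterns without mOL had larger shares than with all peaks. OPC alone was at 15.7% against 8.54%, iOL alone at 10.1% against 6.29%, and OPC with iOL at 9.3% against 3.61%. The narrowest peak used was 157 bp in OPC, 471 bp in iOL and 778 bp in mOL, so equal number is not equal stringency. The higher share in mOL than at the other stages was thus seen with the full lists and not with these, and number and width of the peaks changed together, so their parts cannot be told apart. The high share acetylated throughout was seen with both.

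**Figure D1:**
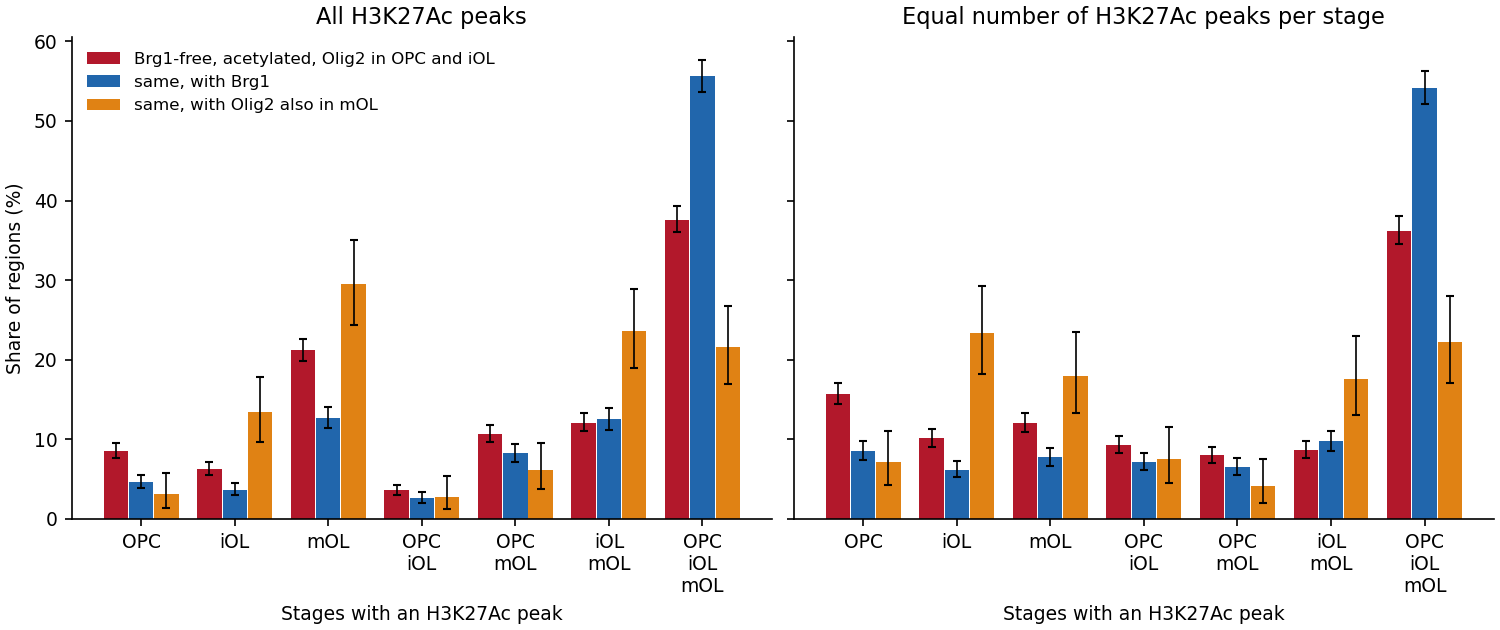
Share of regions (%) with each stage pattern of H3K27Ac, with all peaks (left) and with the same number of widest peaks from each stage (right). Bars are Brg1-free regions (red), the same with Brg1 (blue) and the same with Olig2 also in mOL (orange), and error bars are exact 95% intervals; the all-stage pattern is at 37.6% of the Brg1-free regions and 55.6% of those with Brg1 on the left, and mOL alone drops to 12% of the Brg1-free regions on the right.

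Most regions acetylated at one stage were acetylated at the next. H3K27Ac of iOL was present at 1370 of the 2009 regions acetylated in OPC (68.2%, 66.1 to 70.2) and at 611 of the 1315 not acetylated in OPC (46.5%, 43.7 to 49.2). H3K27Ac of mOL was present at 1652 of the 1981 regions acetylated in iOL (83.4%) and at 1059 of the 1343 not acetylated in iOL (78.9%). A region with no H3K27Ac at a stage must hold it at another, because the rule asks for 1 or more, and this raises the shares given for regions not acetylated at the first stage. With lists of equal number the first pair became 65.8% and 61%, and the second 69.8% and 56%.

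Compared with otherwise alike regions that held a Brg1 peak of any stage, the Brg1-free regions were less often acetylated throughout. The 2351 regions with Brg1 met every other condition of the rule. The pattern of all 3 stages was at 37.6% of the Brg1-free regions and at 1308 of those with Brg1 (55.6%, 53.6 to 57.7), and mOL alone was at 21.2% and at 299 (12.7%, 11.4 to 14.1). With lists of equal number the all-stage pattern was at 36.2% of the Brg1-free regions and 54.2% of those with Brg1. The 292 regions that differed by an Olig2 peak in mOL showed yet another mix, with 63 acetylated throughout (21.6%), 86 in mOL alone (29.5%) and 69 in iOL and mOL (23.6%). H3K27Ac of OPC was present at 60.4% of the Brg1-free regions, 71.1% of the regions with Brg1 and 33.6% of the regions with Olig2 at all stages. Since H3K27Ac and Brg1 both defined these classes, their H3K27Ac shares are given with no test.

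The position of H3K27Ac around the Olig2 regions is a description, since the rule chose regions that meet an H3K27Ac peak and so fixed a high coverage near their middle. The middle base of the region lay inside an H3K27Ac peak of the same stage at 82.3% of the regions acetylated in OPC, 81.7% of those acetylated in iOL and 81.1% of those acetylated in mOL. At 5 kb to the left of the middle, H3K27Ac of OPC, iOL and mOL covered 3.58, 4.24 and 6.83% of the Brg1-free regions, and at the middle 49.7, 48.7 and 66.2%. The H3K27Ac peak covered a median 64.7% of the region in OPC, 68.2% in iOL and 75% in mOL. The widest H3K27Ac peak at each region had a median of 965, 1026 and 1125 bp in stage order at the Brg1-free regions, against 977, 1084 and 1214 bp at all union regions that met one. At regions with Brg1 the medians were 1169, 1291 and 1474 bp.

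**Figure D2:**
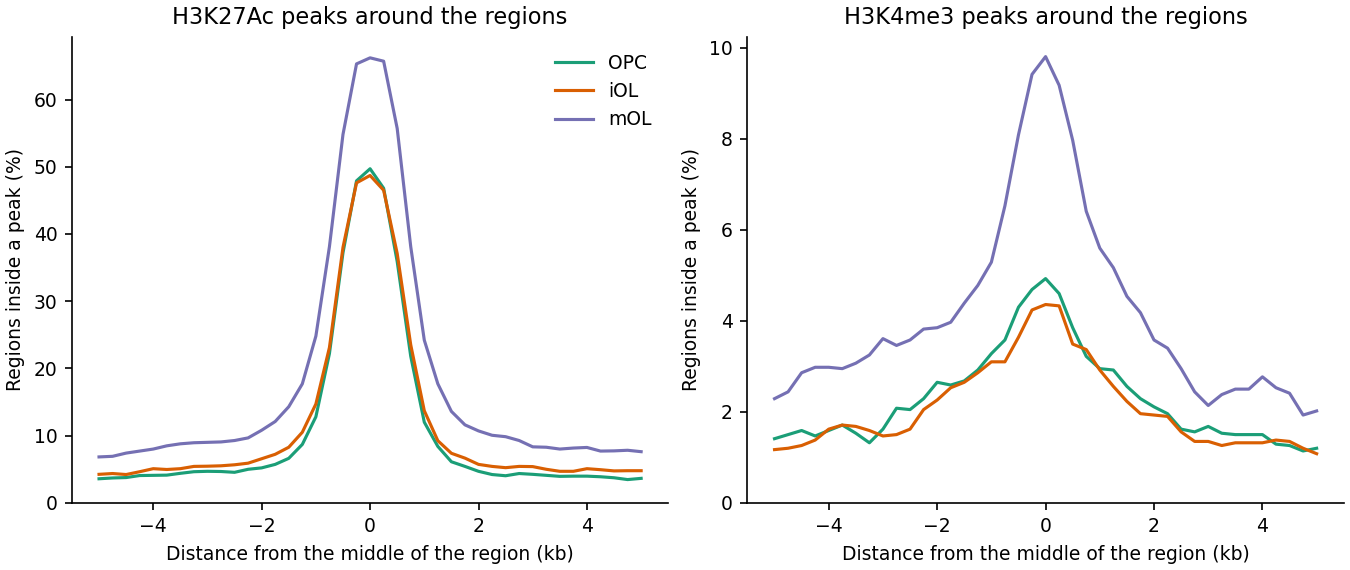
Share of the 3324 Brg1-free regions (%) inside an H3K27Ac peak (left) or an H3K4me3 peak (right) at each distance (kb) from the middle of the region, with 1 line per stage. H3K27Ac stands at 49.7% in OPC, 48.7% in iOL and 66.2% in mOL at the middle, and H3K4me3 at 4.93, 4.36 and 9.81%; the 2 vertical axes differ in scale.

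H3K4me3, the promoter mark, which the rule did not use, was found at a small part of the Brg1-free regions. The part was larger than at the regions with Brg1, with Olig2 also in mOL or without H3K27Ac. H3K4me3 of OPC was present at 272 regions (8.18%, 7.27 to 9.17), against 3.13% of all union regions. H3K4me3 of iOL was present at 242 (7.28%, 6.42 to 8.22), against 2.81% of all union regions. H3K4me3 of mOL was present at 452 (13.6%), against 5.37%. H3K4me3 of any stage was present at 460 (13.8%, 12.7 to 15.1), against 5.45%, and 2864 regions (86.2%) held none. Every Brg1-free region was acetylated by the rule, but only 11441 of the 31655 union regions met H3K27Ac, and 1724 met H3K4me3. The union shares are therefore not those of acetylated Olig2 regions, which were not computed, and no excess over acetylated regions in general is read from them.

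Where H3K4me3 was present it was most often present throughout. H3K4me3 of all 3 stages was found at 218 regions (6.56%), of mOL alone at 164 (4.93%), of OPC and mOL at 47 (1.41%) and of iOL and mOL at 23 (0.692%). Only 7 regions held it in OPC alone, 1 in iOL alone and none in OPC with iOL. Almost every region with H3K4me3 of OPC or iOL thus also held it in mOL, the stage with the longest H3K4me3 list. With the 10467 widest H3K4me3 peaks of each stage, a comparison chosen after seeing the data, the shares were 7.73% in OPC, 7.28% in iOL and 10.3% in mOL (9.33 to 11.4), and mOL alone was at 2.62% (2.1 to 3.22).

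Differences between classes are given in percentage points with Newcombe 95% intervals and were called where the interval left out 0. Over the 3 marks not used by the rule, their stages and 3 classes, 33 differences were computed and 19 were called, with no correction for their number. The differences given below for peaks within 10 kb, within splits, and with or without H3K4me3 lie outside this count. They were not corrected either. H3K4me3 of any stage was present at 13.8% of the Brg1-free regions and at 234 of the 2351 with Brg1 (9.95%, 8.77 to 11.2), a difference of 3.89 points (2.18 to 5.56). It was present at 49 of the 6635 regions that met the other conditions but held no H3K27Ac (0.739%), a difference of 13.1 points (11.9 to 14.3). At the 292 regions with Olig2 at all stages it was present at 16 (5.48%), a difference of 8.36 points (4.93 to 10.8). The 292 regions were less often acetylated throughout, at 21.6% against 37.6%. At 1, 2 and 3 acetylated stages H3K4me3 was at 4.48, 2.11 and 12.7% of them. The Brg1-free regions had 4.09, 9.12 and 26.5%, so the order was reversed at 1 stage, and no interval was taken for these differences. The higher share at the Brg1-free regions than at those with Brg1 was called in each stage's own list, at 3.59 points in OPC (2.31 to 4.84), 3.07 in iOL (1.85 to 4.26) and 3.77 in mOL (2.08 to 5.43). The Brg1-free regions were wider, with a median of 1497 bp against 1270 bp for the unacetylated ones, and the part of width in that difference was not tested.

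H3K4me3 was concentrated at the Brg1-free regions acetylated throughout. It was present at 331 of the 1250 regions with H3K27Ac at all 3 stages (26.5%, 24.1 to 29). It was present at 14.1% of the regions acetylated in OPC and mOL, 5.97% of those in iOL and mOL, and 5% of those in OPC and iOL. Among regions acetylated at a single stage it was present at 3.52% for OPC, 2.87% for iOL and 4.69% for mOL. The 704 regions acetylated in mOL alone were thus mostly without the promoter mark, with H3K4me3 of mOL at 33.

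The difference from regions with Brg1 was also taken among regions with the same number of acetylated stages, a split chosen after seeing the data, and was largest among those acetylated at 3 stages. Among regions acetylated at 3 stages, H3K4me3 was at 26.5% of the Brg1-free regions and 15.3% of those with Brg1, a difference of 11.2 points (8.05 to 14.3). Among those acetylated at 2 stages it was at 9.12% and 4.19%, a difference of 4.93 points (2.27 to 7.44). Among those acetylated at 1 stage it was at 4.09% and 2.23%, and the difference of 1.87 points was not called (−0.111 to 3.48). The regions with Brg1 were slightly wider, with a median of 1574 bp. Within quartiles of region width, from narrow to wide, the difference was 8.98 points, 3.48, 1.46 (not called, −1.86 to 4.64) and 3.8.

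**Figure D3:**
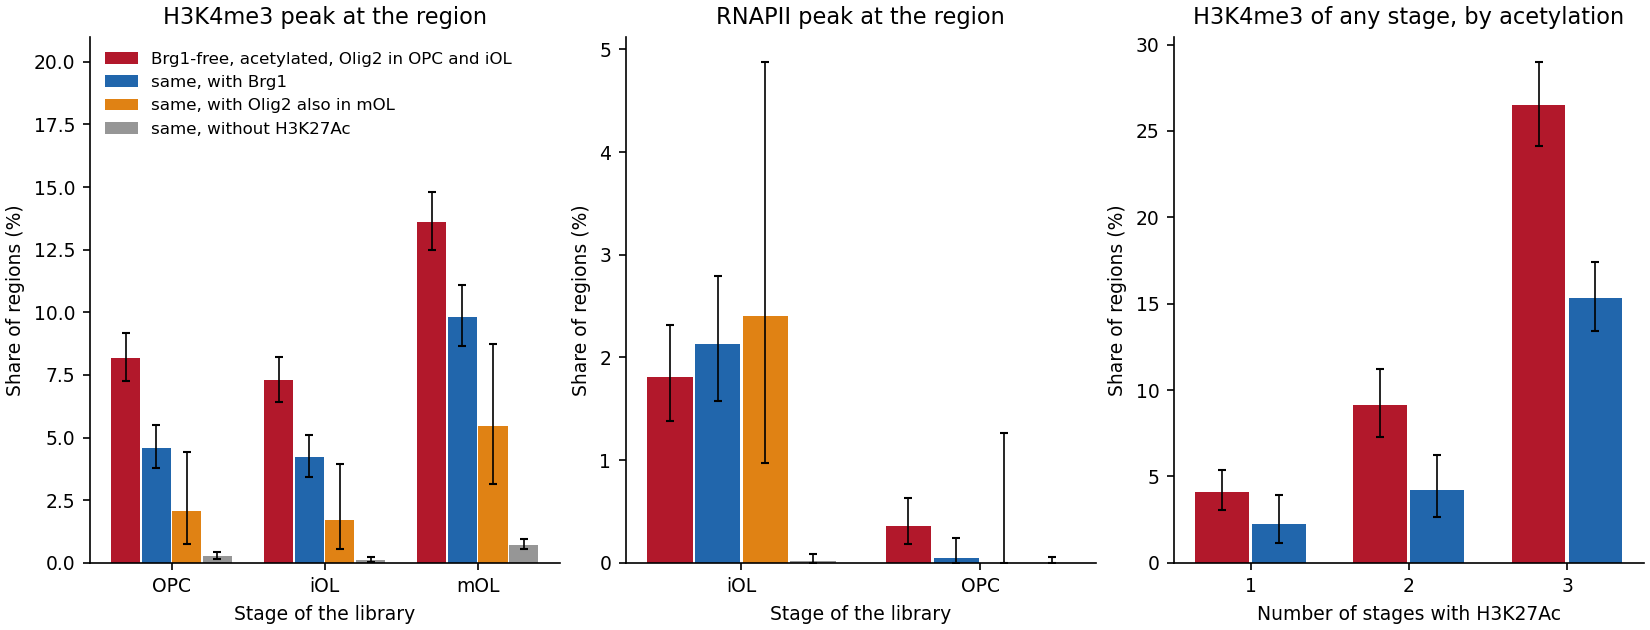
Share of regions (%) with an H3K4me3 peak by stage (left), with an RNAPII peak by stage (middle), and with H3K4me3 of any stage by the number of stages at which the region held H3K27Ac (right). Colours are Brg1-free regions (red), the same with Brg1 (blue), the same with Olig2 also in mOL (orange) and the same without H3K27Ac (grey), and error bars are exact 95% intervals; H3K4me3 of mOL is at 13.6% of the Brg1-free regions and 9.83% of those with Brg1, and the right panel climbs from 4.09 to 26.5% of the Brg1-free regions.

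Regions with H3K4me3 mostly held H3K27Ac, whether or not the stages were matched. H3K27Ac was present at 90.1% of the regions with H3K4me3 in OPC, 87.2% in iOL and 95.4% in mOL. The 460 regions with H3K4me3 were acetylated at all 3 stages in 331 cases (72%, 67.6 to 76), and the 2864 without it in 919 cases (32.1%, 30.4 to 33.8). Of the 218 regions with H3K4me3 at all stages, 183 (83.9%) held H3K27Ac at all stages. The 164 regions with H3K4me3 in mOL alone held H3K27Ac at all stages in 108 cases (65.9%) and in mOL alone in 11 cases (6.71%). H3K4me3 lay less centrally than H3K27Ac, with the middle base inside the H3K4me3 peak at 60.3% of the regions that met one in OPC, 59.9% in iOL and 72.1% in mOL.

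RNAPII was found at few of the Brg1-free regions, and mainly in iOL. A peak of iOL was present at 60 regions (1.81%, 1.38 to 2.32), against 0.72% of all union regions. A peak of OPC was present at 12 (0.361%, 0.187 to 0.63), against 0.0885% of all union regions. RNAPII of either stage was at 70 regions (2.11%, 1.65 to 2.65), against 0.774%. Of all union regions, 245 met RNAPII and 11441 met H3K27Ac, which every Brg1-free region holds by the rule. The union shares are thus not those of acetylated regions, and no excess over acetylated regions in general is read from them. The iOL peak stood alone at 58 regions and the OPC peak at 10, and 2 regions held both. The iOL list is the longer one, with 1425 peaks against 332, so the order of the stages cannot be told apart from the length of the lists.

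Most regions with RNAPII were acetylated throughout, and more than not held H3K4me3. Of the 70 regions with RNAPII, 63 (90%, 80.5 to 95.9) held H3K27Ac at all 3 stages and 42 (60%, 47.6 to 71.5) held H3K4me3 at 1 or more stages. RNAPII was present at 42 of the 460 regions with H3K4me3 (9.13%) and at 28 of the 2864 without it (0.978%), a difference of 8.15 points (5.81 to 11.1). H3K27Ac of iOL was present at 56 of the 60 regions with RNAPII of iOL, and H3K4me3 of iOL at 23 of them (38.3%, 26.1 to 51.8). H3K27Ac of OPC was present at 11 of the 12 regions with RNAPII of OPC, and H3K4me3 of OPC at 6.

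RNAPII was more frequent at the Brg1-free regions than at the unacetylated ones, and its share over both stages was not shown to differ from that of regions with Brg1. It was present at 2.11% of the Brg1-free regions and at 1 of the 6635 unacetylated regions (0.0151%), a difference of 2.09 points (1.65 to 2.64). At the regions with Brg1 it was present at 51 of 2351 (2.17%), a difference of −0.0634 points (−0.864 to 0.688), and at the regions with Olig2 at all stages it was present at 7 of 292 (2.4%), a difference of −0.291 points (−2.8 to 1.06). Neither interval leaves out 0, so no difference was shown, and these intervals do not show that the shares are alike. In the OPC list the share was higher at the Brg1-free regions, with 12 regions against 1 region with Brg1, a difference of 0.318 points (0.0674 to 0.59). In the longer iOL list it was 1.81% against 2.13%, a difference of −0.322 points (−1.1 to 0.4) that was not called. No unacetylated region held RNAPII of OPC, which allows a share of up to 0.0452% by a limit of 3 counts, nor did any of the 292 regions with Olig2 at all stages, which allows up to 1.03%. Among regions acetylated at all 3 stages, RNAPII of either stage was at 5.04% of the Brg1-free regions and 3.44% of those with Brg1, a difference of 1.6 points (0.0344 to 3.21).

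H3K9me3, the mark of silenced chromatin, was rare. It was present at 10 Brg1-free regions in OPC (0.301%), 3 in iOL (0.0903%) and 16 in mOL (0.481%). The shares of all union regions were close, at 0.344, 0.0821 and 0.559%. In all, 21 Brg1-free regions held it at any stage (0.632%, 0.391 to 0.964), against 0.828% of all union regions. It was at 0.663% of the unacetylated regions, a difference of −0.0314 points (−0.345 to 0.341), which is not called. It was more frequent at the regions with Olig2 at all stages, where 6 of 292 held it (2.05%), a difference of −1.42 points (−3.79 to −0.265). By stage, 3 of the 292 held it in OPC, 2 in iOL and 3 in mOL. The difference was called in OPC (−0.727 points, −2.68 to −0.00378) and iOL (−0.595, −2.37 to −0.0679). In mOL, the longest H3K9me3 list, it was not called (−0.546, −2.5 to 0.194). H3K27Ac of mOL was present at 18 of the 21 (85.7%, 63.7 to 97), near its share of 81.6% over all the Brg1-free regions.

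The Brg1-free regions also lay nearer to H3K4me3 than the other classes did. The median distance to the nearest H3K4me3 peak of any stage was 33 kb, with quartiles of 6.84 and 91.1 kb. It was 53.3 kb for regions with Brg1, 53 kb for those with Olig2 at all stages and 83.6 kb for unacetylated regions. A peak lay within 10 kb of 973 Brg1-free regions (29.3%), against 16.5% of all union regions. The share was 21.4% for regions with Brg1, a difference of 7.92 points (5.64 to 10.2), and 9.16% for unacetylated regions, a difference of 20.1 points (18.4 to 21.8). It was 20.5% for regions with Olig2 at all stages, a difference of 8.72 points (3.5 to 13.2). RNAPII lay within 10 kb of 180 Brg1-free regions (5.42%), against 2.6% of all union regions and 4.25% of the regions with Brg1, a difference of 1.16 points (0.015 to 2.27). These distances count the regions that meet a peak as 0 kb away. Most union regions held no H3K27Ac, so the shares of all union regions are not those of acetylated ones.

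**Figure D4:**
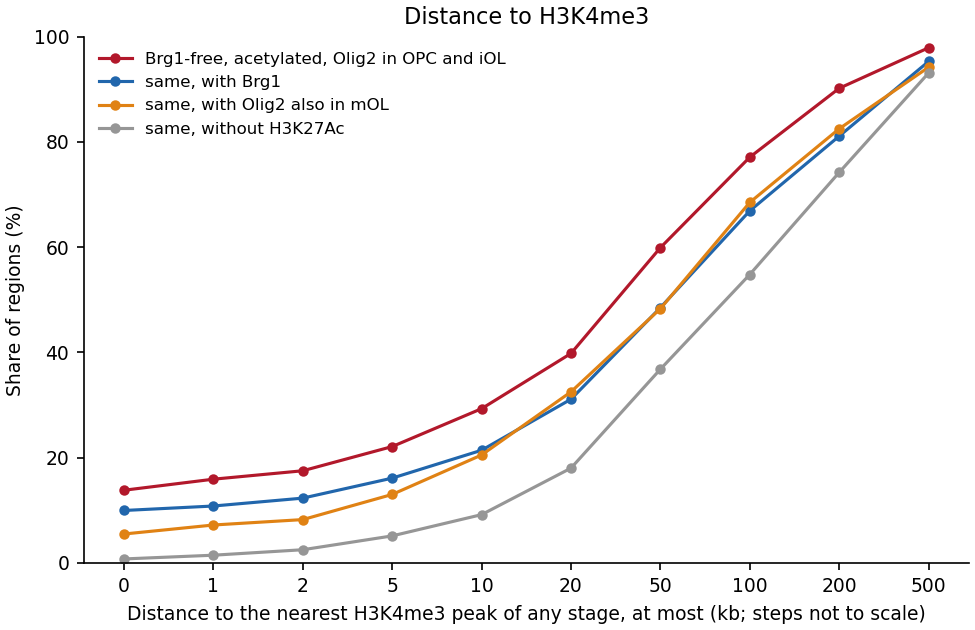
Share of regions (%) with an H3K4me3 peak of any stage at most the given distance away (kb, steps not to scale), 1 line per class. The Brg1-free regions (red) run above the others at each distance plotted, with 29.3% within 10 kb against 21.4% of the regions with Brg1 (blue), 20.5% of those with Olig2 also in mOL (orange) and 9.16% of the unacetylated regions (grey).

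Brg1 was absent from the regions by the rule, and from the 10 kb around most of them, as around most unacetylated regions. The median distance to the nearest Brg1 peak was 67.6 kb, against 109 kb for unacetylated regions, and the first quartile 20.1 kb against 38.3 kb. The Brg1-free acetylated regions thus lay nearer to Brg1 than the unacetylated ones. The shares that follow were not computed over all union regions. A Brg1 peak lay within 1 kb of 65 regions (1.96%), within 5 kb of 298 (8.97%), within 10 kb of 489 (14.7%) and within 50 kb of 1419 (42.7%). Few regions stood at the edge of the rule. Brg1 lay at most 100 bp away from 3 of them, the nearest at 26 bp, and 2 of the regions with Brg1 met it by at most 100 bp, the shortest overlap being 75 bp. H3K27Ac overlapped 21 of the Brg1-free regions by at most 100 bp, the shortest overlap being 2 bp. H3K27Ac lay at most 100 bp away from 11 unacetylated regions, the nearest at 9 bp.

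Joining H3K27Ac peaks of all stages across gaps of up to 12500 bp gave 18743 acetylated domains, and 3001 of them held Brg1-free regions. A domain held 1 such region in 2735 cases and 2 or more in 266 cases, which together held 589 regions. The median length was 3.67 kb for domains with Brg1-free regions and 1.72 kb over all domains, and a longer domain is more likely to meet any region, so no difference is read from these lengths. A Brg1 peak lay elsewhere in the same domain for 653 of the 3324 regions (19.6%, 18.3 to 21). Over all domains 4579 (24.4%) held Brg1, but this is a share of domains and not of regions, and the rule had removed the regions that touch Brg1, so the 2 shares are not compared. An Olig2 peak of mOL lay in the same domain for 180 regions (5.42%). Over all domains, 1271 of 18743 (6.78%) held one, a share of domains and not of regions. Where a domain held 2 or more of the regions, they shared a single H3K27Ac pattern in 89 of 266 domains (33.5%). The share for regions drawn from different domains was not computed, so neighbours are not read as more or less alike than other regions.

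The domain with the most Brg1-free regions was 84.5 kb long, at chr12:32561773-32646287, and held 6 of them. It held 6 Olig2 peaks of OPC, 10 of iOL and none of mOL, and no Brg1 or RNAPII peak. H3K27Ac covered 13.5 kb of it in OPC, 25.7 kb in iOL and 31.3 kb in mOL, a larger stretch at each later stage, although the lists as a whole also grow in that order. Of its 6 regions, those at chr12:32587550-32588947, chr12:32600642-32601933, chr12:32636618-32637841 and chr12:32637891-32640341 were acetylated at all stages. The region at chr12:32577340-32578597 was acetylated in OPC and mOL, and that at chr12:32583022-32584308 in mOL alone. None of the 6 met H3K4me3, and the H3K4me3 peaks of OPC and iOL lay near the left end of the domain. The domain also held 3 H3K4me3 peaks of mOL. The rightmost ran from −2059 to −1341 bp, counted from the middle of the domain. It lay just beside the region at chr12:32600642-32601933, which ended at −2096 bp.

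**Figure D5:**
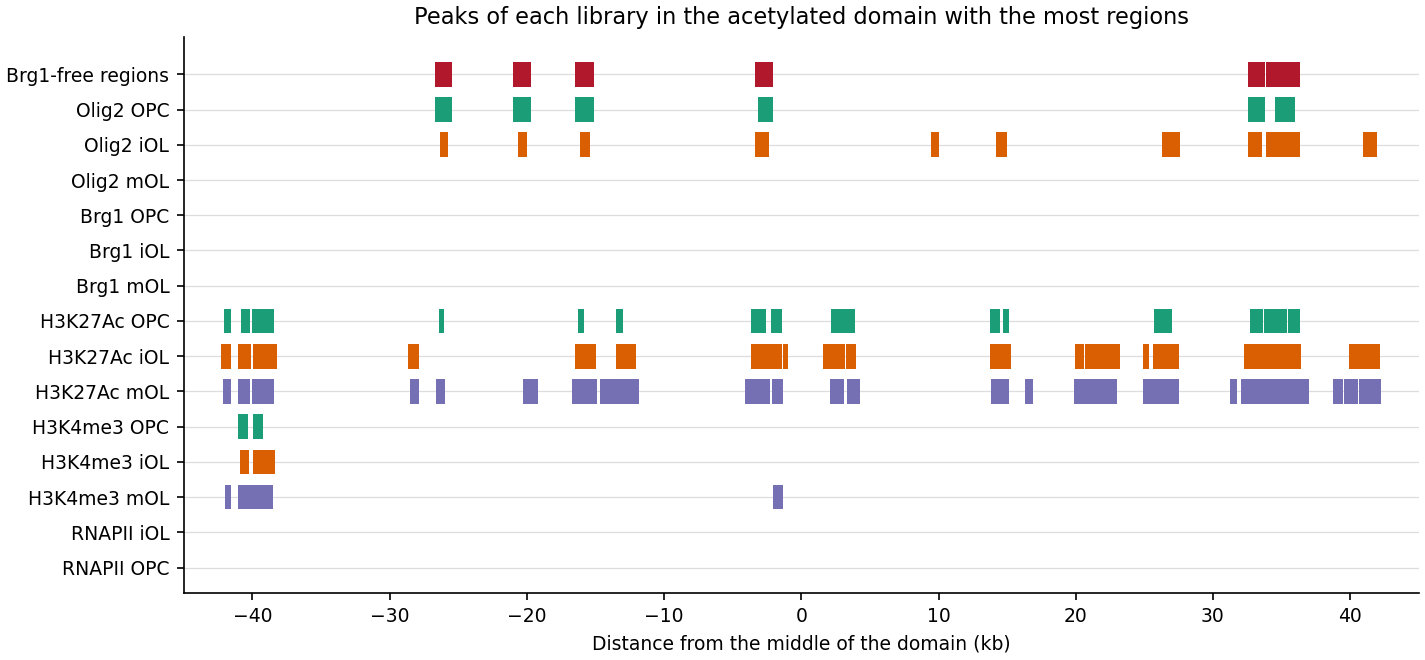
Map of the domain of joined H3K27Ac peaks with the most Brg1-free regions, with distance from its middle (kb) on the horizontal axis and 1 row per peak list. Boxes are peaks and the red boxes the 6 Brg1-free regions (the last 2 almost touch), and the rows of Brg1, of RNAPII and of Olig2 in mOL are empty while H3K27Ac fills 13.5 kb in OPC, 25.7 kb in iOL and 31.3 kb in mOL.

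Each of the next 4 domains held 5 of the regions. The one at chr7:137708558-137771800 (63.2 kb) carried promoter marks, with 4, 5 and 10 H3K4me3 peaks in OPC, iOL and mOL, 5 RNAPII peaks in iOL and 2 in OPC, and no Brg1 peak. Its H3K27Ac covered 25.5, 24.6 and 30.2 kb in stage order. The region at chr7:137763598-137766558 in it met RNAPII of iOL and H3K4me3 of mOL. A pair of domains lay close together on chromosome 6, at chr6:110898238-110955004 and chr6:110768854-110818203. The first held 1 Brg1 peak in iOL and 1 in mOL, and the second 2 in iOL. H3K4me3 was absent from the first, and from all 5 regions of the second. The domain at chr1:84008138-84040707 (32.6 kb) held neither Brg1, H3K4me3 nor RNAPII, and its nearest Brg1 peak lay 482 kb or more from each of its 5 regions.

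Only 2 regions held RNAPII at both stages. The region at chr17:37083605-37087475 (3871 bp) met RNAPII peaks of 1007 bp in iOL and 1653 bp in OPC. It also met H3K4me3 peaks of 3379, 3250 and 4041 bp in OPC, iOL and mOL, and H3K27Ac covered it whole at each stage. The region at chr7:137768346-137770960 (2615 bp), at the right end of the domain on chromosome 7 described above, met RNAPII peaks of 2473 bp in iOL and 1420 bp in OPC. Its H3K27Ac peak was 3685 bp in OPC, 8506 bp in iOL and 8676 bp in mOL, and H3K4me3 was called there in mOL alone, as a peak of 1365 bp. The nearest Brg1 peak lay 95.7 kb from the first region and 386 kb from the second. Over all the Brg1-free regions the median was 67.6 kb, with quartiles of 20.1 and 186 kb.

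The widest regions of each pattern show the range of forms. The widest of all, at chr7:123454817-123459890 (5074 bp), was acetylated at all 3 stages over 27.4, 26 and 25.4% of its length and held no H3K4me3. The next widest of that pattern, at chr2:180280757-180284791 (4035 bp), lay whole inside H3K27Ac peaks of 10197, 7506 and 13170 bp and met H3K4me3 peaks of 2864, 2982 and 4261 bp, with no RNAPII. For acetylation in mOL alone the widest regions were chr8:62232081-62234895 and chr12:34291769-34294563, where H3K27Ac covered 21.8 and 48.7% and no H3K4me3 peak was met. The widest region acetylated in OPC alone was chr9:105405660-105408787, with H3K27Ac over 20.5% of it, and the widest in iOL alone was chr17:384696-387510, with H3K27Ac over 33.1%. For iOL with mOL the widest were chr18:50316013-50319239, where H3K27Ac covered 32.8% in iOL and 61.2% in mOL, and chr2:196121019-196124148, where it covered 24.1% in iOL and 91.2% in mOL.

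H3K4me3 in mOL alone was exemplified by chr7:123648370-123652274 (3905 bp), which lay whole inside H3K27Ac at each stage and met an H3K4me3 peak of 1203 bp in mOL. The region at chr6:130129383-130133200 (3818 bp) met H3K4me3 of mOL over a peak of 467 bp and was acetylated in OPC and mOL, over 53.7 and 45.7% of its length. The widest regions with H3K4me3 in OPC and mOL were chr2:120977322-120980620, inside H3K27Ac peaks of 13478, 13513 and 15512 bp, and chr19:39109385-39112668, which lay 0.57 kb from a Brg1 peak.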

How the data were processed

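The authors deposited 1 list of peaks for each of the 17 ChIP-seq libraries, with 3 columns (chromosome, start and end in base pairs) and no score, height or p-value, so the deposited positions were the values used. Per the submitters' processing notes, MACS 1.4.0 and rn4 were used; SOLiD fragment libraries are named in the labels' protocols. For the aligner, peak threshold, control library and any pooling of cultures, the settings were not given in the sources used here. Samples were assigned to target and stage from their titles.

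Starts were written 1-based by adding 1. Overlap meant at least 1 bp. Comparison classes differed from the Brg1-free regions in 1 condition each. Shares have exact Clopper-Pearson 95% intervals, differences Newcombe 95% intervals, and a count of 0 allows 3 counts. The members, classes and lists were chosen with earlier results of these data known. Regions named are the 5 domains with the most members, the 2 widest members of each H3K27Ac pattern, up to 3 with RNAPII at both stages and the 2 widest of each of the 3 commonest H3K4me3 patterns, leaving out unplaced sequence (15 members); the text gives most of them. Planned gene lists and cell type markers were not applied, since the annotation at hand is of GRCr8 and positions were not converted. Alternatives were overlap of 50% of the shorter interval, marks within 1000 bp, the middle 200 bp, H3K27Ac lists of equal number (widest peaks, for want of a score), the wider 50% of regions, no unplaced sequence, 1 region per domain and domain gaps of 5 and 25 kb. Splits by acetylated stages and width and equal H3K4me3 lists were added after seeing the data. The class calls were tested on simulated lists, and the numbers of union regions and of members were checked against bedtools 2.31.1. Python 3.11.15, numpy 2.4.6, scipy 1.17.1 and matplotlib 3.10.9 were used.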

Additional observations from a re-analysis of the deposited data

How the results depend on the processing

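As every target had 1 library a stage, no replicate could be left out. No paired analysis was possible because the groups have a single library each and the results come from no test between samples. The depth of the libraries is unknown, so a missing peak may be a peak below the threshold. The number of Brg1-free regions ran between 2903 and 3405 over the 6 alternatives. The share acetylated at all 3 stages was 35.6% with the middle 200 bp of each region and 39.8% with the wider 50% of regions, against 37.6%. The share acetylated in mOL was 79.2% with the middle 200 bp and 64.9% with an equal number of H3K27Ac peaks, against 81.6%, and that in mOL alone was 12% with an equal number and 19.4% with the wider 50%, against 21.2%. With an equal number of H3K4me3 peaks, H3K4me3 of mOL was at 10.3% against 13.6%, and of mOL alone at 2.62% against 4.93%. The 3 H3K4me3 differences and the RNAPII difference from unacetylated regions kept their sign and stayed called under each of the alternatives chosen at the start; the H3K4me3 difference from regions with Brg1 was not called for regions acetylated at 1 of 3 stages (1.87 points) or in the third width quartile (1.46 points), and the cause was not tested. The RNAPII difference from regions with Brg1, −0.0634 points and not called, was positive with 50% overlap (0.0722), within 1000 bp (0.0437), with the middle 200 bp (0.0853), with an equal number of H3K27Ac peaks (0.0815), at 1 of 3 stages (0.167), at 3 of 3 stages (1.6), and in the third (0.218) and the widest (1.18) width quartile. That from regions with Olig2 at all stages was positive with 50% overlap (0.429) and the middle 200 bp (0.122), and the H3K9me3 difference from unacetylated regions was positive with the middle 200 bp (0.0128). Of these positive values only the one at 3 of 3 stages had an interval that left out 0; the cause was not tested. The share of regions with Brg1 in their domain was 10.6% with peaks joined across 5 kb and 31.8% across 25 kb, against 19.6%, since a wider gap makes longer domains.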

Other observations

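The Brg1-free regions were unevenly spread over the chromosomes. Chromosome 12 held 101 of them, 2.16 per Mb and 17.1% of its Olig2 union regions, and chromosome 10 held 233, 2.11 per Mb and 14.1%. Chromosome X held 50, 0.311 per Mb and 7.87%, and chromosome 2 held 204, 0.79 per Mb and 7.53%. The whole set came to 1.19 per Mb and 10.5% of union regions. The length of a chromosome was taken as the largest peak end over the lists, and no test was made.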
